A study of Mus musculus with 12 samples.

Results

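The transcriptome of tumor cDC1s that lacked DNGR-1 and had been exposed to excess Flt3L was compared with that of WT cDC1s given neither change. The 6 libraries of this comparison, 3 of each group, were chosen by genotype and plasmid from the 12 of the study, and the other 6 served to show how far 1 of the changes went alone. KO FL cDC1s came from Clec9a gfp/gfp mice, a DNGR-1-deficient strain that was backcrossed to C57BL/6 and carries GFP in the Clec9a locus, after hydrodynamic injection of a plasmid encoding Flt3L (FL). WT FL cDC1s came from WT mice with the same plasmid, KO control cDC1s from Clec9a gfp/gfp mice with an empty plasmid, and WT control cDC1s from WT mice with an empty plasmid. The plasmid was given 1 day before B16F10 cells, a mouse melanoma line, were placed under the skin, and tumors were collected on day 13 from mice that were 7 to 10 weeks old when used. Cells of 2 to 3 mice, with tumors on both flanks, were combined for every library, so that single mice were not measured. The pools came from 3 independent experiments, but the labels do not tie a library to an experiment. CD11c+ cells were enriched on beads and sorted for CD24, CD103 and MHCII among CD45+ cells without CD11b, F4/80 or Ly6C on their surface.

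cDC1s are the dendritic cells that excel at presenting antigen from dead cells to CD8+ T cells, and they depend on the transcription factors Batf3 and Irf8. Flt3L is the growth factor that drives dendritic cell development through the receptor Flt3, and its excess expands cDC1s. DNGR-1, the product of Clec9a, is a C-type lectin receptor by which cDC1s sense the actin cytoskeleton of damaged cells. Mature dendritic cells stop dividing, raise costimulatory molecules and Ccr7, and leave the tissue.

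Values are TMM-scaled CPM, the counts of a gene per 1000000 counts of its library, as deposited, and a fold change is a difference of log2(CPM + 1), which understates the change of genes with low values. Groups were compared with limma over the 11255 genes with a mean of at least 1 CPM, with 1 mean per group over all 12 libraries, and a gene was called at a Benjamini-Hochberg adjusted p under 0.1. The summed level of 9 defining cDC1 markers, the targeted gene Clec9a among them, was 9210 to 9890 CPM in KO FL and 9910 to 10300 CPM in WT control libraries. Clec9a gave 371, 351 and 288 CPM of the WT control sums and at most 1.36 CPM of the KO FL sums. The genotype by itself thus sets part of the gap. Xcr1, the chemokine receptor of this lineage, was at 1680, 1400 and 1210 CPM in KO FL against 1550, 1830 and 1860 CPM in WT control libraries. Defining markers of T and NK cells, B cells and neutrophils were not among the genes of the table. The effective depth was 20.2 to 24.1 M counts in KO FL, 20 to 25.9 M in WT FL, 3.06 to 21 M in KO control and 14.4 to 17.2 M in WT control libraries, and 1 CPM stood on as many counts as the depth in M. On the first principal component (32.9% of the variance), KO FL 3 lay at 46.3 and WT control 1 and 3 at −50 and −54.9, against −11.9 to 27.3 for the other 9 libraries. These 3 libraries stood at the opposite ends of the comparison.

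Clec9a (ENSMUSG00000046080; chromosome 6 of GRCm38, 129408862 to 129424763), the targeted gene, was at 1.36, 0.269 and 0.789 CPM in KO FL against 371, 351 and 288 CPM in WT control libraries. The groups did not overlap (log2 fold change −7.58, SE 0.51, adjusted p = 3.31e-07). WT FL libraries had 328, 388 and 329 CPM and KO control libraries 0.509, 1.31 and 10.9 CPM, so the gene followed the genotype with either plasmid. Gm43914, annotated as a sense transcript within the Clec9a gene (129418179 to 129418772), had 0.0248, 0.0207 and 0.0239 CPM in KO FL libraries, each the value of 0 counts, against 10.5, 9.71 and 9.38 CPM in WT control libraries. It lies on the same strand as Clec9a, and its reads cannot be told apart from unspliced Clec9a RNA.

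Clec7a (ENSMUSG00000079293), which encodes the beta-glucan receptor Dectin-1 and lies near Clec9a in the same cluster of lectin genes (chromosome 6, 129461591 to 129472779), had the largest rise of the named genes. GENCODE lists it as a polymorphic pseudogene. It was at 2390, 1800 and 2550 CPM in KO FL against 54.5, 61.1 and 119 CPM in WT control libraries (log2 fold change 4.90, SE 0.30, adjusted p = 2.01e-07). KO control libraries had 1430, 1340 and 1970 CPM and WT FL libraries 118, 190 and 84.6 CPM, and the log2 fold change of KO control over WT control was 4.38. Clec9a, Gm43914 and Clec7a were the 3 genes called in KO FL against WT FL cDC1s, and the same 3 were called in KO control against WT control cDC1s (0.0267% of genes each). At an unadjusted p under 0.05, 431 and 2211 genes passed in these comparisons, and limma-voom also called 3 genes in each. KO control against WT control called 2335 genes without WT control 2 and 156 without KO control 1. Flt3, the receptor of the ligand that the plasmid encodes, was at 625, 607 and 687 CPM in KO FL against 569, 642 and 593 CPM in WT control libraries, and the groups overlapped (0.09, SE 0.17, adjusted p = 0.747).

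Across all genes, 1445 were higher (12.8%) and 1109 lower (9.85%) in KO FL than in WT control cDC1s, and the median log2 fold change of all genes was 0.01. Scaling to column totals gave 1628 higher and 706 lower, a share of 69.8% higher among the called genes in place of 56.6%. The higher genes had a median log2 fold change of 1.03 (quartiles 0.82 and 1.29) and the lower genes one of −0.81, and 51 and 19 genes differed by over 4-fold. For comparison, FL in WT cDC1s called 738 genes (6.56%; WT FL against WT control), and FL in cDC1s without DNGR-1 called 614 (5.46%; KO FL against KO control). The spread of changes and the place of 3 gene groups in it are shown in the plot of all genes.

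**Figure D1:**
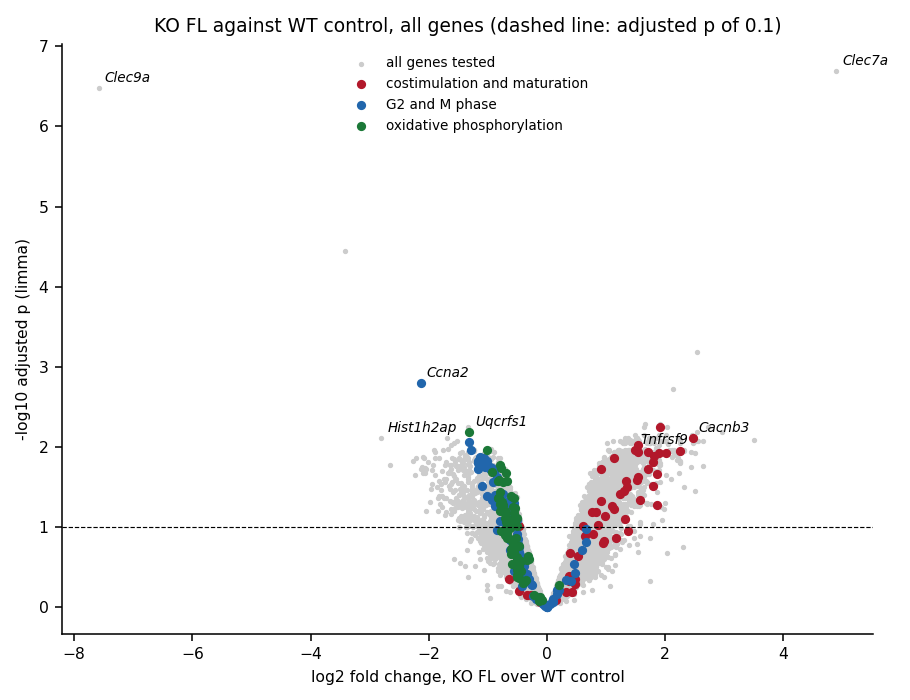
Each point is 1 of the 11255 genes tested in KO FL against WT control cDC1s; the x axis is the log2 fold change (KO FL over WT control) and the y axis −log10 of the limma adjusted p. Clec7a at 4.90 and Clec9a at −7.58 lie far from all others, genes of costimulation and maturation (red) lie mostly right, and those of G2 and M phase (blue) and oxidative phosphorylation (green) mostly left.

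The number of calls rested on few libraries. It was 1445 higher and 1109 lower with all 12 libraries, 331 and 161 without KO FL 3, 473 and 162 without WT control 3, 1033 and 684 without WT control 1, 807 and 393 without KO FL 1, and 2083 and 1809 without WT control 2. Leaving out KO FL 3 together with WT control 1 left 10 calls, and together with WT control 3 left 5. In both cases Clec7a, Clec9a, Gm43914 and Gdap10 were among them. Gdap10 was at 107, 62.4 and 103 CPM in KO FL against 14.3, 22.2 and 9.24 CPM in WT control libraries (2.54, adjusted p = 0.000653). These 2 reduced sets were chosen after seeing the data, and they compare 2 with 2 libraries. All 2554 called genes kept their sign in both. The calls of genes named below held on leaving out any 1 library unless one is given beside the gene, but 62 and 65 of the 69 called genes that are named lost their calls with 1 or the other pair left out.

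**Figure D2:**
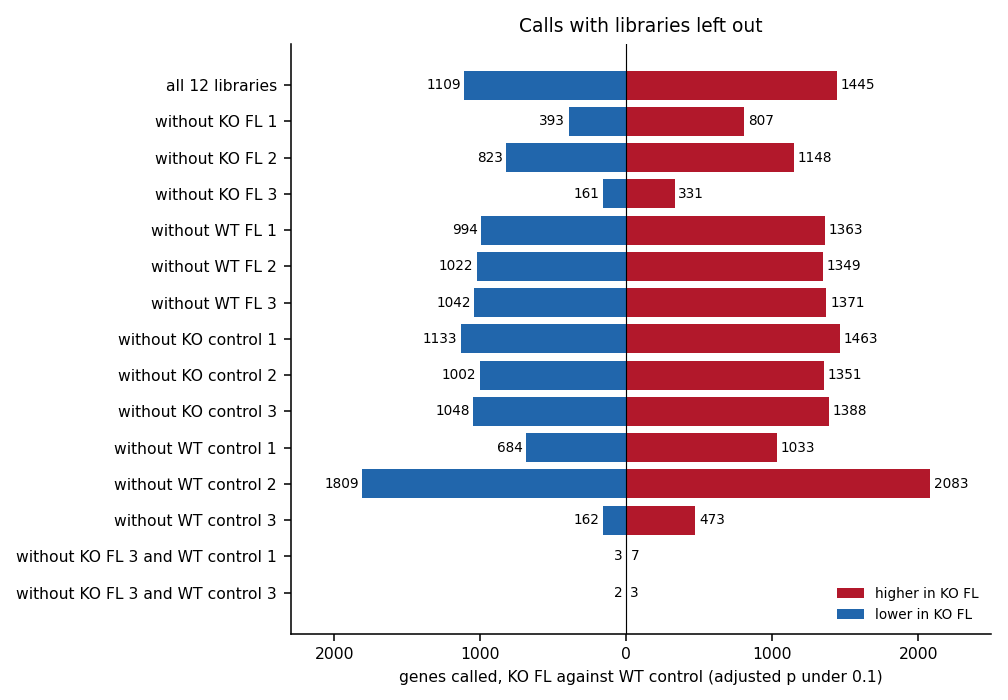
Bars give the number of genes called in KO FL against WT control cDC1s, higher to the right and lower to the left, with all 12 libraries and with each library or pair of libraries left out. The total falls to 492 without KO FL 3, 635 without WT control 3, and 10 or 5 when KO FL 3 is left out with 1 of the WT control libraries.

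A gene that needs both changes must differ in KO FL from each of the other 3 groups. This was tested by the largest of the 3 p-values in 1 direction. A gene that each change moves alone can pass as well, so passing would not show such a need. No gene passed (0 of 11255; 0%), with a smallest adjusted p of 1, and 242 genes (61 higher and 181 lower) passed at an unadjusted p under 0.05. The interaction, which is the change in KO FL beyond the sum of the changes with FL alone and with the genotype alone, also called no gene (0%; smallest adjusted p = 0.316, 1027 genes at an unadjusted p under 0.05). Limma-voom called 0 genes in both. Without WT control 2 the interaction called 22 genes. The 3 KO FL libraries were above all 9 others for 134 genes (1.19%) and below all 9 for 247 genes (2.19%).

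Of the 1445 genes higher in KO FL cDC1s, 548 were also called higher in WT FL against WT control cDC1s and 1 in KO control cDC1s, which left 896 (62%) called in neither. Over all 1445 higher genes the median log2 fold change was 1.03 in KO FL, 0.83 in WT FL and 0.57 in KO control, each against the same WT control libraries. Of the 1109 lower genes, 119 were also called in WT FL and 2 in KO control, and 988 (89.1%) in neither. Over all 1109 the medians were −0.81, −0.55 and −0.34. These shares rest on the calls of WT FL against WT control, which numbered 738 with all libraries, 0 without WT FL 2 or without WT control 3, 36 without WT FL 3, 373 without WT control 1, 424 without KO FL 1, 436 without KO FL 2 and 2535 without WT control 2, and on those of KO control against WT control, which numbered 2335 without WT control 2 and 156 without KO control 1. A gene that was not called with 1 change alone is not shown to be unaffected by it. These comparisons share the WT control libraries, and a library that is high or low there moves all of them. Against the KO control libraries, 176 of the 1445 higher and 267 of the 1109 lower genes were called, with medians of 0.46 and −0.44. Among all 11255 genes 226 were called higher and 388 lower there. The genes were chosen by their values in the same KO FL libraries. A difference of the same sign is therefore partly built in, and the counts are no independent support.

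Among genes with a mean of at least 5 CPM, the smallest p of KO FL against all 3 other groups was that of Tnfrsf9 (ENSMUSG00000028965; chromosome 4, 150914562 to 150946102), which encodes the costimulatory receptor 4-1BB. It was at 20.2, 25.4 and 39.6 CPM in KO FL against 9.53, 10.1 and 7.79 CPM in WT control libraries (log2 fold change 1.49, SE 0.29, adjusted p = 0.0109). WT FL libraries had 10.7, 12.9 and 7.23 CPM and KO control libraries 8.88, 7.82 and 9.95 CPM, so that the 3 groups without both changes overlapped one another and all KO FL libraries lay above them. The unadjusted p over the 3 comparisons was 0.000235, and the interaction was 1.40 at an unadjusted p of 0.00362.

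Ccna2 (ENSMUSG00000027715; chromosome 3, 36564865 to 36572150), which encodes cyclin A2 of S and G2 phase, came next. It was at 25, 40 and 19.3 CPM in KO FL against 127, 92.9 and 152 CPM in WT control libraries (−2.13, SE 0.28, adjusted p = 0.0016). WT FL libraries had 55, 78.6 and 58 CPM, between the 2 groups, and KO control libraries had 121, 181 and 190 CPM. The KO FL libraries were below all 9 others, the interaction was −1.60 (unadjusted p = 0.000789), and the unadjusted p over the 3 comparisons was 0.000467. Against KO control cDC1s the log2 fold change was larger still (−2.53, adjusted p = 0.000785).

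The other genes with the smallest p over the 3 comparisons were all lower in KO FL cDC1s. H2afx, the histone variant that is phosphorylated at DNA breaks, was at 19.4, 43.5 and 26.8 CPM in KO FL against 104, 76.9 and 104 CPM in WT control libraries (−1.69, adjusted p = 0.00777). Srsf6, a splicing factor, was at 39.7, 47 and 37.9 CPM in KO FL against 128, 71.2 and 120 CPM in WT control libraries (−1.30, adjusted p = 0.0116). Rnf26, a ubiquitin ligase of the endoplasmic reticulum, was at 10.6, 17.6 and 7.87 CPM in KO FL against 31.2, 27.5 and 19.4 CPM in WT control libraries (−1.10, adjusted p = 0.0234, and 0.132 without KO FL 3). For each of these 3 genes the KO FL libraries lay below all 9 others, as they did for the cochaperone gene Fkbp4 (−1.52), the riboflavin kinase gene Rfk (−1.89), the citrate carrier gene Slc25a1 (−0.91), the lysosomal acetyltransferase gene Hgsnat (−1.38), the aminopeptidase gene Rnpep (−1.62) and Fam149a (−1.36). Hist1h2ap, a histone H2A gene that is expressed with DNA replication, was at 22.1, 70.2 and 22.1 CPM in KO FL against 278, 124 and 369 CPM in WT control libraries, with the widest change of the set (−2.80, adjusted p = 0.00777) and KO FL 2 above the lowest WT FL library (66 CPM). The library that was lowest among the WT controls for H2afx, Srsf6 and Hist1h2ap was WT control 2.

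**Figure D3:**
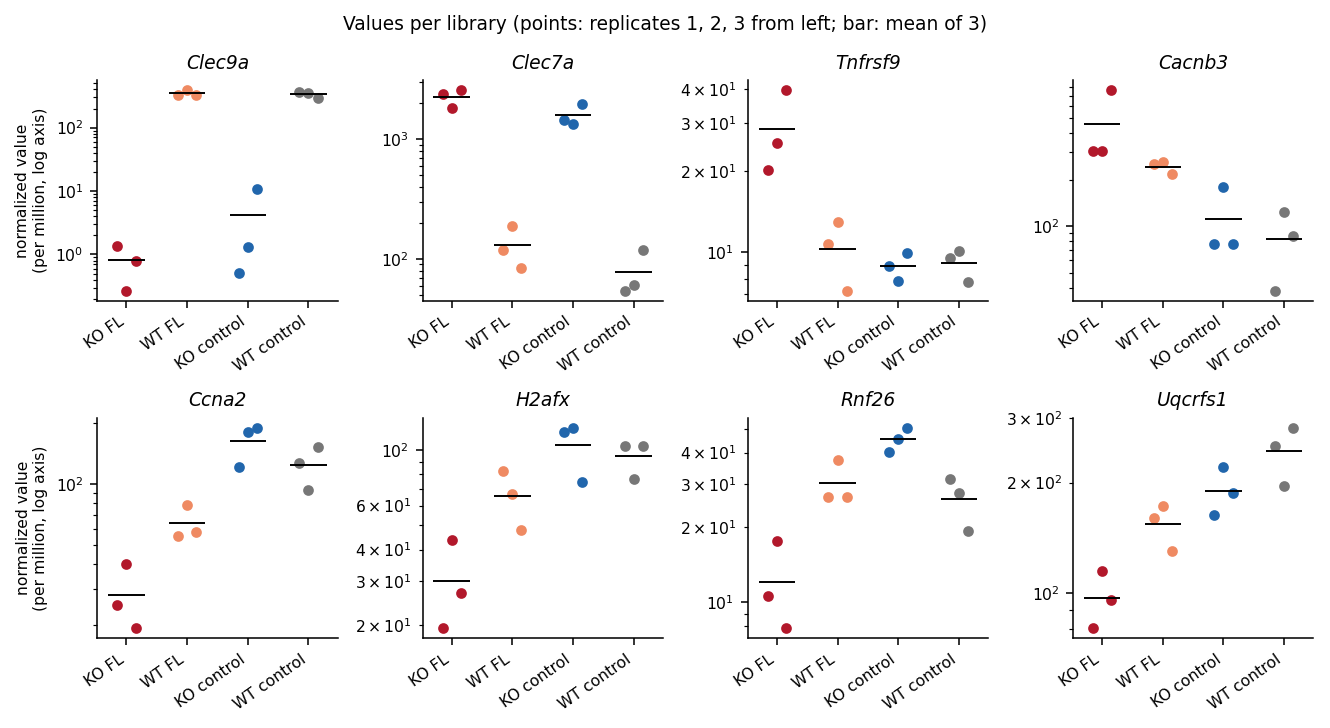
Normalized values in CPM (log axes) of 8 genes in the 3 libraries of each group, with a bar at the mean of 3. Clec9a and Clec7a follow the genotype with either plasmid, Tnfrsf9 is higher and Ccna2, H2afx, Rnf26 and Uqcrfs1 are lower in all KO FL libraries than in the 9 others, and the lowest KO FL value of Cacnb3 (308 CPM) is above the highest value of each other group.

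The 6 genes with the smallest p of the interaction all had negative terms, that is, KO FL was lower than the sum of the single changes. Rnf26 had the smallest (−2.11, unadjusted p = 6.93e-05). In Polg, which encodes the mitochondrial DNA polymerase, KO FL libraries had 10.3, 16.5 and 15.9 CPM, WT FL libraries 21, 31.4 and 31.8 CPM, KO control libraries 35.1, 23.8 and 25.6 CPM and WT control libraries 17, 13.9 and 7.65 CPM. Polg was thus higher with either change alone than with both or neither, with a combined log2 fold change of 0.18 (adjusted p = 0.721) and an interaction of −2.06 (unadjusted p = 0.000182). Cand1, which regulates cullin ubiquitin ligases (−1.66), Hnrnpul1, an RNA-binding protein (−1.45), and Pygo2, a cofactor of Wnt signaling (−1.62), also had higher means in WT FL and in KO control than in KO FL and WT control. Mtmr2, a lipid phosphatase, had an interaction of −1.72 and was lower in KO FL than in WT control cDC1s (−0.72, adjusted p = 0.0593, and 0.21 without KO FL 3, 0.128 without KO FL 1 and 0.172 without WT control 3). None of these terms passed over all genes.

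Cacnb3, Arc and Mmp25 were among the genes with the largest rises. Cacnb3, a calcium channel subunit that is high in mature dendritic cells, was at 308, 308 and 758 CPM in KO FL against 38.3, 124 and 86.3 CPM in WT control libraries (2.47, SE 0.41, adjusted p = 0.00777). Arc, an immediate-early gene first known from neurons, was at 67.1, 48.1 and 158 CPM in KO FL against 4.98, 26.4 and 12.3 CPM in WT control libraries (2.64, adjusted p = 0.00851). KO FL 3 was the highest of its group in both, and in Mmp25, a membrane-bound metalloproteinase (149, 123 and 324 CPM in KO FL against 16.8, 63.2 and 25.9 CPM in WT control libraries; 2.54, adjusted p = 0.00645). WT FL libraries lay between the groups for Cacnb3, at 218 to 259 CPM, and overlapped KO FL for Arc (35.6, 53 and 44.2 CPM) and Mmp25 (109, 127 and 102 CPM).

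Ptgs2, which encodes the prostaglandin synthase COX-2, was at 3.05, 8.6 and 27.3 CPM in KO FL against 0.379, 0.795 and 0.796 CPM in WT control libraries (2.65, adjusted p = 0.0173, and 0.109 without KO FL 3). The actin-binding genes Synpo2 (2.73) and Eps8l2 (2.53), the adenosine receptor gene Adora2a (2.55), the membrane protein gene Serinc5 (2.47) and Vopp1 (2.97) were also called, with adjusted p values from 0.0056 to 0.00886. Vopp1 and Cacnb3 were higher in the KO FL libraries than in all 9 others. In C1qbp and Pgls, among the genes with the largest falls, WT control 2 lay nearest to KO FL. C1qbp, a mitochondrial matrix protein, was at 6.56, 9.55 and 7.15 CPM in KO FL against 112, 15.8 and 84.3 CPM in WT control libraries (−2.65, adjusted p = 0.0169, and 0.101 without WT control 3). Pgls, an enzyme of the pentose phosphate pathway, was at 8.64, 17.2 and 9.25 CPM in KO FL against 73.2, 23.8 and 110 CPM in WT control libraries (−2.27, adjusted p = 0.0149). The Mediator subunit gene Med30 (−2.22), the gene Mpv17l2 of mitochondrial ribosome assembly (−2.10) and Ndfip1, an adaptor of ubiquitin ligases (−2.08), were lower too, with adjusted p values from 0.0133 to 0.0137.

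Genes of costimulation and maturation had the largest median of the pathway lists. Of 54 tested members 33 were higher and 1 lower, against 12.8% and 9.85% of all genes, and the median log2 fold change was 1.12, against 0.01 for all genes. These all-gene values also stand beside the counts of KO FL against WT control for every list below. The medians were 0.71 in WT FL and 0.16 in KO control against WT control cDC1s, and 0.93 in KO FL against KO control cDC1s, where 22 members were higher (226 of all 11255 genes). As log2 distances from the mean of the 12 libraries, the list means were 0.28, 0.34 and 1.10 in KO FL and 0.29, 0.49 and −0.06 in WT FL libraries. KO FL and WT FL thus overlapped, and only KO FL 3 lay above all WT FL libraries. Tnfrsf9 belongs here, and Il4ra, a receptor chain for IL-4 and IL-13, was at 404, 317 and 702 CPM in KO FL against 104, 190 and 83.6 CPM in WT control libraries (1.91, adjusted p = 0.0056). Il4i1, an amino acid oxidase of mature dendritic cells, was at 115, 96.1 and 193 CPM in KO FL against 31, 55.4 and 48.4 CPM in WT control libraries (1.54, adjusted p = 0.00952). The KO FL libraries were above all 9 others for 11 members, against 1.19% of all genes. The number of higher members was 12 without KO FL 3, 18 without WT control 1 and 28 without WT control 3, with medians of 0.79, 0.81 and 1.36.

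The study names 21 genes for these libraries, of which 8 were higher and 11 lower (median −0.57), and since it chose them on the same samples their direction is no independent evidence. In KO FL against WT FL cDC1s 0 of the 21 were called higher and 0 lower (median −0.22). The genes given in this paragraph are all among the higher ones. Higher and lower members numbered 1 and 3 without KO FL 3, 3 and 9 without WT control 1, and 5 and 6 without WT control 3. Cd70, the ligand of CD27 on T cells, was at 13.1, 11.2 and 20.3 CPM in KO FL against 1.54, 3.91 and 7.44 CPM in WT control libraries (1.71, adjusted p = 0.0188, and 0.111 without KO FL 3). WT FL libraries had 7.63, 8.09 and 3.43 CPM and KO control libraries 2.12, 2.78 and 2.12 CPM, all below KO FL. Il12b, which encodes the shared subunit of IL-12 and IL-23, was at 1190, 913 and 2450 CPM in KO FL against 167, 495 and 766 CPM in WT control libraries (1.79, adjusted p = 0.0306, but 0.158 without KO FL 3 and 0.11 without WT control 1). Ccr7, the receptor that guides dendritic cells to lymph nodes, was at 1390, 1180 and 2900 CPM in KO FL against 220, 743 and 703 CPM in WT control libraries (1.79, adjusted p = 0.0155). Cd80, a ligand of CD28, was at 21.2, 29.8 and 45.2 CPM in KO FL against 11.5, 19 and 17.4 CPM in WT control libraries (0.92, adjusted p = 0.0468, and 0.219 without KO FL 3, 0.141 without WT control 1 and 0.116 without WT control 3).

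Of the 29 chemokine and receptor genes 8 were higher (27.6%, against 12.8% of all genes) and none lower, with a median of 0.44, which was 0.03 in WT FL and −0.05 in KO control cDC1s. Without KO FL 3, 2 were higher and the median was 0.18, and 4 were higher without WT control 3 and 5 without WT control 1. The list means overlapped between KO FL (0.10, 0.22 and 0.76) and WT FL libraries (0.21, 0.38 and −0.30). Ccl5, which attracts T cells and dendritic cells, was at 285, 200 and 421 CPM in KO FL against 46.1, 124 and 171 CPM in WT control libraries (1.53, adjusted p = 0.0258, and 0.138 without KO FL 3). WT FL libraries had 205, 217 and 117 CPM and KO control libraries 57.8, 93.8 and 50.7 CPM. Cx3cl1, the ligand of CX3CR1, was at 26.5, 24.5 and 78.2 CPM in KO FL against 4.22, 16.7 and 6.26 CPM in WT control libraries (2.12, adjusted p = 0.0133). Ccl3, an inflammatory chemokine, overlapped between the groups, at 15.1, 19.7 and 30.2 CPM in KO FL and 13.8, 13.3 and 18.9 CPM in WT control libraries (0.44, adjusted p = 0.486).

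Of 132 genes of the response to TNF and NF-kappaB, 44 were higher and 10 lower (median 0.45, and 0.24 in WT FL and 0.17 in KO control cDC1s). These were 33.3% and 7.58% of the list, against 12.8% and 9.85% of all genes. The list means overlapped between KO FL (−0.01, 0.08 and 0.61) and WT FL libraries (0.16, 0.31 and −0.22). Rel, which encodes the NF-kappaB subunit c-Rel, was at 214, 169 and 442 CPM in KO FL against 77.1, 89.9 and 52.9 CPM in WT control libraries (adjusted p = 0.00777), with no overlap. Cflar, an inhibitor of caspase-8, was at 137, 119 and 204 CPM in KO FL against 51.8, 75.2 and 53.1 CPM in WT control libraries (1.32, adjusted p = 0.00854). Pfkfb3, a regulator of glycolysis, was higher as well (1.44, adjusted p = 0.0109). Without KO FL 3, 14 members were higher and 1 lower, without WT control 3, 30 and 0, and without WT control 1, 30 and 5.

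The letters GGGNNTTTC, the core of an NF-kappaB motif, were searched on both strands of RefSeq promoters of GRCm38.p6 (250 bases before to 50 after the start). They stood in the promoters of 5.06% of 27025 genes, of 20 of the 103 tested members of the TNF and NF-kappaB list with a promoter in the table, and of 11 of its 46 called members with one. Stretches of 100 bases are shown for Rel and Tnfrsf9, the 2 called members with the smallest p that hold the motif, which is in capitals.
Rel, chr11:23771006-23771105, minus strand: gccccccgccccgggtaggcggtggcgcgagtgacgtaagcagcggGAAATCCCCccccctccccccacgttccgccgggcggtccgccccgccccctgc
Tnfrsf9, chr4:150927910-150928009, plus strand: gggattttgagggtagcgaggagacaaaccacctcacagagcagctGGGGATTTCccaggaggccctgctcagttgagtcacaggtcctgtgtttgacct
A match of letters is a description and not a binding site. In Rel the motif lies on the strand opposite to the gene. The Tnfrsf9 stretch lies inside the GENCODE span of the gene (150914562 to 150946102), at a RefSeq start downstream of its first base.

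Genes of the type I interferon response followed with a smaller median. Of 74 members 21 were higher (28.4%, against 12.8% of all genes) and none lower. The median was 0.35, against medians of 0.17 in WT FL and 0.13 in KO control cDC1s. Adar, which edits double-stranded RNA, was at 138, 110 and 228 CPM in KO FL against 62.7, 77.1 and 37.5 CPM in WT control libraries (1.40, adjusted p = 0.0113). Ifih1, which encodes the RNA sensor MDA5, was at 35.9, 24.8 and 55.4 CPM in KO FL against 14.4, 15.3 and 14.5 CPM in WT control libraries (1.26, adjusted p = 0.013). Without KO FL 3, 2 members were higher and the median was 0.17, and 6 were higher without WT control 3 and 10 without WT control 1. Without WT control 2, 23 members were higher and 4 lower. In KO FL 3 the list mean was 0.66 above the mean of the 12 libraries on the log2 scale, against 0.06 and −0.04 in KO FL 1 and 2. WT FL libraries were at −0.06, 0.21 and −0.09, which overlapped KO FL.

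**Figure D4:**
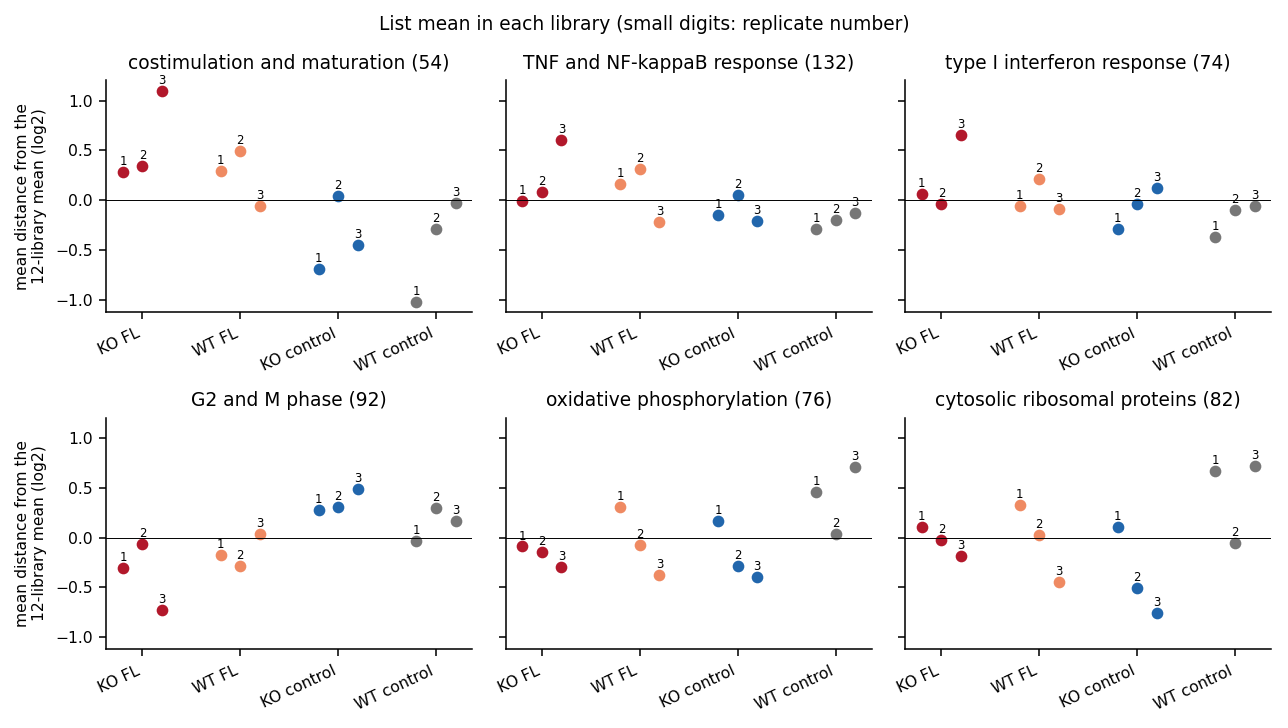
Each point is the mean, over the tested members of a list, of the log2 distance from the member's mean over the 12 libraries, and digits give the replicate number. KO FL 3 lies farther from 0 than KO FL 1 and 2 in all 6 lists, at 1.10 for costimulation and maturation and −0.73 for G2 and M phase, and WT control 1 and 3 lie apart from WT control 2 for oxidative phosphorylation (0.46 and 0.71, against 0.04) and cytosolic ribosomal proteins (0.67 and 0.72, against −0.05).

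Genes of G2 and M phase fell as a group. Of 92 members none was higher and 42 were lower, against 9.85% of all genes, with a median of −0.55. The median was −0.36 in WT FL and 0.22 in KO control against WT control cDC1s, and −0.74 in KO FL against KO control cDC1s, where 34 members were lower (388 of all 11255 genes). KO FL libraries were below all 9 others for 4 of the 92 members, against 2.19% of all genes. Their summed level was 6620, 7740 and 5630 CPM in KO FL against 8980, 10400 and 10600 CPM in WT control libraries, and 7550, 6630 and 8410 CPM in WT FL libraries, which overlapped KO FL. Ube2c, which works with the anaphase-promoting complex, was at 70.4, 106 and 57.2 CPM in KO FL against 165, 182 and 221 CPM in WT control libraries (−1.31, adjusted p = 0.0087). Cenph, a kinetochore subunit, was at 9.29, 10 and 6.38 CPM in KO FL against 24.2, 18.1 and 24.1 CPM in WT control libraries (−1.28, adjusted p = 0.0109). Cdk1, the main kinase of mitosis, was at 87.6, 115 and 55.8 CPM in KO FL against 149, 164 and 218 CPM in WT control libraries (−1.07, adjusted p = 0.0155). The number of lower members was 9 without KO FL 3, 17 without WT control 3 and 38 without WT control 1 (median −0.67). Without WT control 2, 38 members were lower and 7 higher (median −0.48). In a bulk library, fewer dividing cells and less of these RNAs per cell cannot be told apart.

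Of 90 genes of DNA replication and E2F targets 25 were lower and none higher (median −0.36), with medians of −0.17 in WT FL and 0.16 in KO control cDC1s. Asf1b, a histone chaperone, was at 84.7, 90.1 and 60.5 CPM in KO FL against 150, 153 and 146 CPM in WT control libraries (−0.94, adjusted p = 0.0112). Dut, which keeps uracil out of DNA, was at 28.8, 30.3 and 14.9 CPM in KO FL against 71.5, 48.4 and 64.1 CPM in WT control libraries (−1.33, adjusted p = 0.0115). Tipin, a factor of the replication fork, lay below all 9 others in the KO FL libraries, at 61.3, 56.8 and 44.2 CPM against 99.8, 87.3 and 128 CPM in WT control libraries (−0.94, adjusted p = 0.0136). Mcm6, a subunit of the replicative helicase, overlapped between KO FL (184, 210 and 168 CPM) and WT control libraries (220, 340 and 200 CPM; −0.40, adjusted p = 0.287). Lower members numbered 5 without KO FL 3, 8 without WT control 3, 17 without WT control 1 and 16 with scaling to column totals. Without WT control 2, 29 members were lower and 7 higher.

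The letters TTTGAA, known as the CHR element of late cell cycle genes, were found on either strand in the promoters of 20.2% of genes in the table. They stood in those of 50 of 75 G2 and M phase members with a promoter (66.7%) and of 21 of the 34 called ones (61.8%). The E2F motif was searched as TTTGGCGC or TTTCCCGC and stood in the promoters of 1.8% of genes in the table. It stood in those of 23 of 74 members of the replication list (31.1%) and of 3 of its 17 called members with a promoter (17.6%). For neither motif was the share higher among the called members than in their list. Ube2c and Cks1b, which encodes a cyclin-dependent kinase subunit, are shown for the first motif and Ezh2, a histone methyltransferase, and Tmpo, a protein of the nuclear lamina, for the second, with the motif in capitals.
Ube2c, chr2:164769853-164769952, plus strand: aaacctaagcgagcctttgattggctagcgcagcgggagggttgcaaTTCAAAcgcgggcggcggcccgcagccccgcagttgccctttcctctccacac
Cks1b, chr3:89418256-89418355, minus strand: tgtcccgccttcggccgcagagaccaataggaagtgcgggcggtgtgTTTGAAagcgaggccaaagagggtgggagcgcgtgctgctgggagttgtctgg
Ezh2, chr6:47594981-47595080, minus strand: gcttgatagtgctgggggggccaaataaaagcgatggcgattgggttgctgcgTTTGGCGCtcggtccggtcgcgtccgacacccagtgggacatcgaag
Tmpo, chr10:91170692-91170791, minus strand: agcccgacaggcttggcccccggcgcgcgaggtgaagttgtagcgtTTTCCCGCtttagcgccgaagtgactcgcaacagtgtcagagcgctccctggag
Cks1b was at 95.8, 122 and 69.1 CPM in KO FL against 187, 176 and 263 CPM in WT control libraries (−1.13, adjusted p = 0.0134). Ezh2 was at 60.4, 68.7 and 49.7 CPM in KO FL against 90.5, 93.3 and 121 CPM in WT control libraries (−0.76, adjusted p = 0.0221, and 0.122 without KO FL 3 and 0.102 without WT control 3). Tmpo was at 77.4, 73.1 and 50.9 CPM in KO FL against 229, 77.4 and 176 CPM in WT control libraries (−1.13, adjusted p = 0.0605, and 0.104 without KO FL 1, 0.217 without KO FL 3, 0.198 without WT control 1 and 0.219 without WT control 3), and WT control 2 met KO FL 1.

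Genes of mitochondrial respiration and of the ribosomes were lower as well, and here the medians with either change alone were also negative. Of 76 genes of oxidative phosphorylation 33 were lower and none higher, with medians of −0.58 in KO FL, −0.48 in WT FL and −0.62 in KO control cDC1s, and of −0.01 in KO FL against KO control cDC1s. Of 78 mitochondrial ribosomal proteins 33 were lower (median −0.57, and −0.47 and −0.53 with FL or the genotype alone). Of 82 cytosolic ribosomal proteins 17 were lower (−0.49, and −0.48 and −0.85), and of 32 proteasome subunits 11 were (−0.41, and −0.44 and −0.28). In KO FL against KO control cDC1s the medians were −0.10 for mitochondrial ribosomal proteins, 0.35 for cytosolic ribosomal proteins and −0.16 for proteasome subunits. Uqcrfs1, the iron-sulfur subunit of complex III, was at 80.5, 115 and 95.7 CPM in KO FL against 252, 196 and 282 CPM in WT control libraries (−1.32, adjusted p = 0.00648). It was 1 of 2 among the 76 members with all KO FL libraries below the 9 others, as were 2.19% of all genes. Sdhb, a subunit of complex II, was at 172, 179 and 153 CPM in KO FL against 263, 250 and 359 CPM in WT control libraries (−0.77, adjusted p = 0.0185), and WT FL libraries at 211, 167 and 176 CPM overlapped KO FL. The lower members of the 4 lists numbered 4, 2, 0 and 2 without KO FL 3, 5, 1, 0 and 1 without WT control 3, 18, 14, 3 and 10 without WT control 1, and 58, 54, 52 and 20 without WT control 2, in the order oxidative phosphorylation, mitochondrial ribosome, cytosolic ribosome and proteasome. With scaling to column totals they numbered 20, 18, 6 and 8. WT control 1 and 3 had the highest means of the 12 libraries in the first 3 lists, while for the proteasome the means were 0.13, 0.14 and 0.54 in WT control 1, 2 and 3. Their part in the result was not tested.

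**Figure D5:**
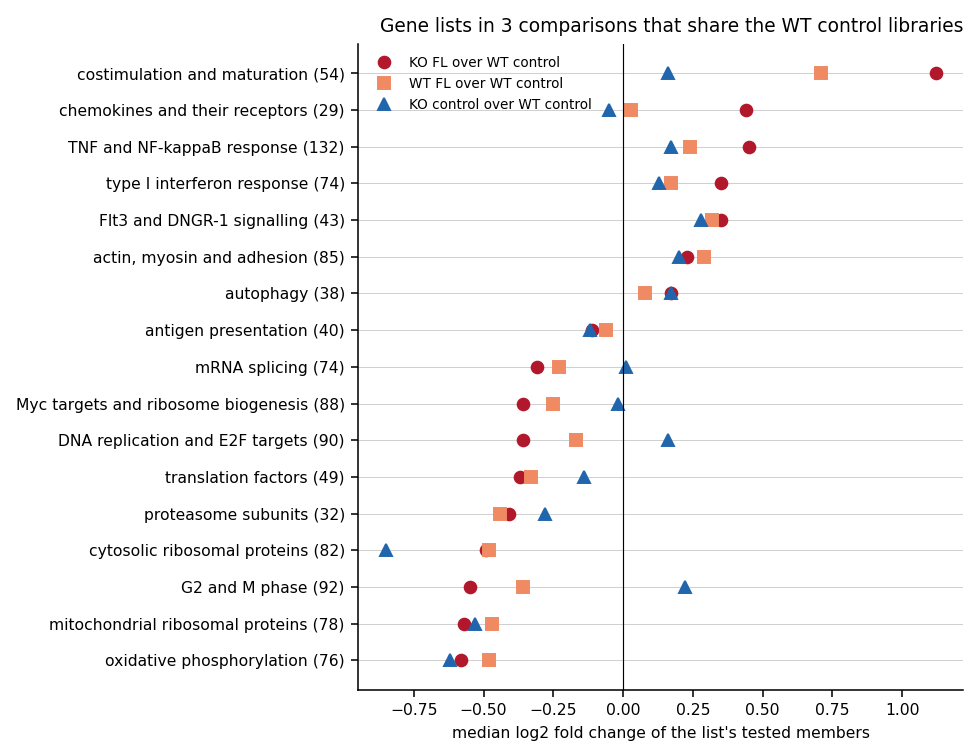
Points give the median log2 fold change of the tested members of 17 gene lists (number in parentheses) in KO FL (circles), WT FL (squares) and KO control cDC1s (triangles), each over the same WT control libraries. For G2 and M phase the medians are −0.55, −0.36 and 0.22 and for costimulation and maturation 1.12, 0.71 and 0.16, while for oxidative phosphorylation all 3 lie between −0.62 and −0.48.

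Lists of protein and RNA synthesis were lower too. In ribosome biogenesis and Myc targets, 22 of 88 were lower and 3 higher (median −0.36), of 49 translation factors 16 and 2 (−0.37), and of 74 splicing genes 20 and 2 (−0.31). Utp18, a factor of ribosome assembly, was at 10, 13.1 and 13 CPM in KO FL against 35.9, 25.1 and 55.3 CPM in WT control libraries (−1.55, adjusted p = 0.0155) and was below all 9 others. Eif5, which triggers start codon recognition, was at 69.9, 97.5 and 85.7 CPM in KO FL against 230, 119 and 264 CPM in WT control libraries (−1.20, adjusted p = 0.0145). In contrast Heatr1, a ribosome assembly gene, was at 38.4, 27.2 and 50.9 CPM in KO FL against 18.6, 20.4 and 10.1 CPM in WT control libraries (1.21, adjusted p = 0.0184, and 0.111 without KO FL 3). Without KO FL 3 the lower members were 3, 1 and 1 in these lists, 2 in each without WT control 3, 17, 8 and 12 without WT control 1, and 12, 12 and 11 with scaling to column totals.

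Of 43 genes of Flt3 and DNGR-1 signaling 14 were higher and 4 lower, Clec9a among the lower (median 0.35, and 0.32 in WT FL and 0.28 in KO control cDC1s). Cblb, a ubiquitin ligase that restrains receptor kinases, was at 161, 115 and 235 CPM in KO FL against 26.5, 52.9 and 34.1 CPM in WT control libraries (2.14, adjusted p = 0.00188). Pik3r1, the regulatory subunit of PI3K, was at 174, 149 and 302 CPM in KO FL against 53, 87.7 and 63.2 CPM in WT control libraries (1.56, adjusted p = 0.00854), above all 9 others. Kit, a receptor kinase related to Flt3, was at 284, 250 and 407 CPM in KO FL against 84.3, 182 and 58.9 CPM in WT control libraries (1.66, adjusted p = 0.0105), and KO control libraries at 272, 197 and 261 CPM overlapped KO FL. Of 85 genes of actin, myosin and adhesion 25 were higher and 3 lower (median 0.23, and 0.29 in WT FL). Itga4, the integrin chain of VLA-4, was at 250, 228 and 366 CPM in KO FL against 72.5, 128 and 89.8 CPM in WT control libraries (1.54, adjusted p = 0.00813), with KO FL above all 9 others, and Myh9, non-muscle myosin, was at 275, 268 and 444 CPM in KO FL against 154, 152 and 89.2 CPM in WT control libraries (1.32, adjusted p = 0.0109). Higher members of the 2 lists numbered 7 and 10 without KO FL 3 and 8 and 10 without WT control 3.

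The medians of 9 further lists lay between −0.25 and 0.17. Of 40 genes of antigen presentation 5 were higher and 5 lower (12.5% each, against 12.8% and 9.85% of all genes; median −0.11). Nlrc5, the activator of MHC class I genes, was at 172, 137 and 241 CPM in KO FL against 84.1, 61.2 and 44 CPM in WT control libraries (1.53, adjusted p = 0.00777), and WT FL libraries were at 162, 221 and 170 CPM. Of 65 lysosome and endosome genes 10 were higher and 3 lower, of 52 genes of cholesterol and lipid metabolism 9 and 8, of 41 genes of glycolysis and hypoxia 5 and 3 (12.2% and 7.32%), of 34 genes of ER stress 4 and 9, of 20 heat shock genes 1 and 4, of 24 immediate-early genes 4 and 6, of 38 autophagy genes 8 and 1, and of 38 survival genes 8 and 0. Without KO FL 3 none of the 9 lists had more than 4 higher or 2 lower members, and without WT control 3 none had more than 5 or 2. Without WT control 1, higher and lower members were 6 and 3 for the lysosome, 4 and 7 for cholesterol, 1 and 8 for ER stress, 0 and 2 for heat shock, 1 and 3 for immediate-early and 5 and 1 for survival genes. Without WT control 2 they were 10 and 9 for antigen presentation, 11 and 3 for glycolysis, 2 and 7 for heat shock, and 14 and 3 for autophagy. With scaling to column totals they were 7 and 1 for antigen presentation, 6 and 0 for glycolysis, and 10 and 5 for cholesterol. Fdps, which makes farnesyl pyrophosphate for sterol synthesis, was at 317, 322 and 193 CPM in KO FL against 641, 520 and 537 CPM in WT control libraries (−1.06, adjusted p = 0.0118). Bcl2l1, which encodes the survival protein Bcl-xL, was at 45.7, 68.4 and 97 CPM in KO FL against 29.3, 33.3 and 18.6 CPM in WT control libraries (1.32, adjusted p = 0.0116), and Bcl2l11, which encodes its antagonist Bim, was at 60.8, 73.9 and 114 CPM in KO FL against 23.9, 46.2 and 36.9 CPM in WT control libraries (1.19, adjusted p = 0.0134).

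The summed defining markers of other cells were low beside the sum of those of cDC1s. The sum of 7 defining macrophage and monocyte markers was 586 to 1210 CPM in KO FL and 517 to 1020 CPM in WT control libraries, most of it Lyz2 (513, 595 and 1090 CPM in KO FL against 537, 488 and 943 CPM in WT control libraries; adjusted p = 0.76). KO FL 3 and WT control 3, which lay at opposite ends of the first principal component, had the highest Lyz2 of their groups. In these libraries Lyz2 was above the cDC1 markers Tlr3 (303 and 337 CPM) and Cadm1 (401 and 418 CPM) and below Xcr1 (1210 and 1860 CPM). Over the whole list, 3 of 29 macrophage and monocyte genes were higher (10.3%) and 4 lower (13.8%), near the 12.8% and 9.85% of all genes. The counts were 0 and 1 without KO FL 3 or without WT control 3, and 4 and 1 without WT control 1. The sum of 4 melanoma markers was 21.5 to 24 CPM in KO FL and 14.4 to 40.2 CPM in WT control libraries, and none of 11 was called. Of 13 cDC2 markers 5 were higher and 2 lower. The sum of the 5 defining ones was 23.5 to 43 CPM in KO FL against 36.9 to 61.6 CPM in WT control libraries. The sum of all 13 was not lower, at 670, 622 and 847 CPM in KO FL against 600, 564 and 777 CPM in WT control libraries, so no fall of the list as a whole was seen. Without KO FL 3 no cDC2 marker was called, without WT control 1 the calls were 2 and 1, and without WT control 3 they were 2 and 0. Of 12 fibroblast and endothelial genes 4 were higher and none lower (median 1.26), but 1 was higher without KO FL 3 and 1 without WT control 3. Their sum was 68.9, 135 and 176 CPM in KO FL against 62.3, 52.5 and 60.3 CPM in WT control libraries, and Eng, an endothelial co-receptor for TGF-beta, was at 5.37, 7.31 and 10.3 CPM in KO FL against 1.78, 2.04 and 1.35 CPM in WT control libraries (1.64, adjusted p = 0.012). Their part in the other changes was not tested. Of 11 plasmacytoid markers 1 was higher, of 9 T and NK cell genes 1 was higher and 1 lower, and none of 3 B cell genes or 2 keratinocyte and erythroid genes was called. Of the neutrophil and mast cell list only Kit was in the table. Of 27 cDC1 markers 4 were higher (14.8%) and 3 lower (11.1%), near the 12.8% and 9.85% of all genes, with Clec9a among the lower (median 0.07). The counts were 1 and 1 without KO FL 3 or without WT control 3. Among the higher was Ly75, the endocytic receptor DEC-205, at 358, 243 and 478 CPM in KO FL against 83.2, 137 and 117 CPM in WT control libraries (1.65, adjusted p = 0.00713).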

How the data were processed

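cDC1s of 4 groups gave 12 libraries, and the titles of the samples name group and replicate. The authors prepared cDNA with the SMARTer system and tagged it with Nextera XT, so that strand was lost, and the submitters' processing notes name CASAVA 1.8.2, cutadapt 1.3, RSEM 1.2.3 and the build GRCm38. The values that the authors deposited are a signal, CPM after TMM scaling, of 11264 genes, each with at least 1 CPM in 3 or more libraries. All values (100%) were within 0.02 counts of a whole number plus 0.5, over the effective library size. Whole reads were still not taken as recovered, since some columns held too few low values to check this, and edgeR was not run. The limma-voom alternative took values times the effective library size, rounded to whole counts.

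Values were taken to log2(CPM + 1), a pseudocount of 1. The 11255 genes with a mean of at least 1 CPM entered a single limma fit (3.58.1, R 4.3.3) with 1 mean per group and a mean-variance trend. The Benjamini-Hochberg adjustment covered all genes of a comparison, and genes were called under 0.1. The test for both changes took the largest p of KO FL against each other group in 1 direction. An exact two-sided permutation test of 3 against 3 libraries cannot go below p = 0.1, the value of any gene whose groups do not overlap. Identifiers kept genes separate, since 106 had no symbol and 7 symbols were repeated. Positions are those of GENCODE M21.

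The comparison, the named genes and the 35 gene lists were chosen with earlier results of these data known, and the lists are described by counts and medians. Named were the 12 largest changes in each direction among called genes with a mean of at least 5 CPM and groups without overlap, the 12 smallest p for both changes, the 6 smallest p of the interaction, for each list the 4 members of lowest p, and genes that the study names. Not all of them are printed. Xcr1 and Lyz2 are markers, Ezh2 and Tmpo came from the promoter search, and Gm43914 was chosen after its values were seen. Scripts were tested on simulated data. Alternatives covered the pseudocount, the filter, 3 other scalings, limma-voom, quality weights, a fit of the 2 groups alone, the replicate number as a block and leaving out libraries.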

Additional observations from a re-analysis of the deposited data

How the results depend on the processing

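The count of 2554 genes called in KO FL against WT control cDC1s ranged from 492 to 3892 when 1 library was left out (331 to 2083 higher and 161 to 1809 lower), and was 10 (7 higher and 3 lower) without KO FL 3 and WT control 1 and 5 (3 and 2) without KO FL 3 and WT control 3, pairs that were chosen after seeing the data. Column totals gave 706 lower genes in place of 1109. Quality weights gave 1267 higher and 944 lower, and a fit of the 2 groups alone 1078 and 746. Over the sets with 1 library or 1 pair left out, KO FL against KO control called 75 to 812 genes, with 145 and 75 for the pairs, WT FL against WT control 0 to 2535, with 408 and 0 for the pairs, KO control against WT control 3 to 2335, and the interaction 0 to 22. Among these sets the 4 counts were highest without WT control 2. In KO FL against KO control, limma-voom called 388 genes and quality weights 1520, against 614, and in WT FL against WT control quality weights called 439, against 738. The causes were not tested. KO FL against WT FL called 3 genes and the test for both changes 0 genes under each alternative run.

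Of the 69 printed genes that were called, none changed sign. Among genes that were not called, Cand1 moved to 0.00 and −0.12 and Polg to −0.13 and −0.22 without WT control 3, alone or with KO FL 3, Flt3 to 0.00 without KO FL 3 and WT control 1, and Lyz2 to −0.08 with quality weights, −0.18 without KO FL 3, −0.04 without WT control 2 and −0.30 without KO FL 3 and WT control 1, on the log2 scale. Over the sets with libraries left out, the values ranged from −0.12 to 0.46 for Cand1, −0.22 to 0.40 for Polg, 0.00 to 0.14 for Flt3 and −0.30 to 0.44 for Lyz2. With the replicate number as a block, 1431 genes were higher and 1069 lower. Deviations of same-numbered libraries had correlations of −0.22 to 0.34, 5 of 18 over 0.1, and 4 of 12 libraries correlated best with their own number, and the numbers were not taken as pairs. The edgeR test was not run, as whole reads were not taken as recovered in every column. Leaving out all 3 libraries that stood apart on the first principal component was not run, since 1 WT control library would remain. The depth of KO control 3 (3.06 M counts) limits its low values.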
